A study of Mus musculus with 9 samples.

Results

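Wnt proteins are secreted, lipid-modified ligands that bind Frizzled receptors on the cell surface. In the canonical branch, receptor binding stops the breakdown of beta-catenin, which then enters the nucleus and works with TCF and LEF factors on target genes. Other branches act through small GTPases or calcium and set cell polarity and movement. In the prostate, Wnt signals take part in the budding and branching of the epithelium.

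The 8 genes described here were 5 Wnt ligands (Wnt7b, Wnt10a, Wnt4, Wnt5a and Wnt7a), 2 Frizzled receptors (Fzd6 and Fzd7) and Ctnnb1, which encodes beta-catenin. They were taken by gene symbol from the array annotation, as 8 of 8251 named genes. The set was chosen by measured values of these arrays, namely the line difference in intensity, Rb-null minus wild-type. Each gene had 1 probe set, none of these carried a family suffix, and all 8 passed the filter on low values. The probe sets were 92404_at for Wnt7b, 98862_at for Wnt10a, 103238_at for Wnt4, 99390_at for Wnt5a, 101316_at for Wnt7a, 101142_at for Fzd6, 101143_at for Fzd7 and 160430_at for Ctnnb1.

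RNA came from mouse prostate epithelial cell lines, 1 that lacks Rb1 (the retinoblastoma gene, whose protein restrains E2F factors before S phase) and 1 with the gene intact. Cells grew in RPMI-1640 with 5% fetal bovine serum or spent 48 hours in the same medium without serum. The groups were Rb-null cells without serum (2 arrays), Rb-null cells in serum (2 arrays), wild-type cells without serum (2 arrays) and wild-type cells in serum (3 arrays). Each genotype is 1 line, so a difference between genotypes cannot be told apart from a difference between these lines, and whether arrays of 1 group were separate cultures is not stated in the labels, so p-values measure the spread between arrays only.

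Sequence upstream of the start site was at hand for 4 of the 8 genes, in RefSeq windows of GRCm38.p6 that run from 250 bases before to 50 bases after the start. Ctnnb1 is shown because its level differed between the lines in the other direction from the ligands (chr9:120933150-120933449, plus strand). Wnt4 is shown as a ligand whose level differed between the media (chr4:137277385-137277684, plus strand). Fzd7 is shown because it held the only motif match among the windows of these genes (chr1:59481897-59482196, plus strand). Capitals mark that match, to the TCF/LEF motif CTTTGTT read on the reverse strand, 130 bases before the start.
Ctnnb1: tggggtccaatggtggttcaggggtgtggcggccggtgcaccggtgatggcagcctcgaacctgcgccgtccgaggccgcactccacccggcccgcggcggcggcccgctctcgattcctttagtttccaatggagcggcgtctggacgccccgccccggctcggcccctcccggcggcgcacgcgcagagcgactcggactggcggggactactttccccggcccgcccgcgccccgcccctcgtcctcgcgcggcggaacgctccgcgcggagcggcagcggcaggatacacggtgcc
Wnt4: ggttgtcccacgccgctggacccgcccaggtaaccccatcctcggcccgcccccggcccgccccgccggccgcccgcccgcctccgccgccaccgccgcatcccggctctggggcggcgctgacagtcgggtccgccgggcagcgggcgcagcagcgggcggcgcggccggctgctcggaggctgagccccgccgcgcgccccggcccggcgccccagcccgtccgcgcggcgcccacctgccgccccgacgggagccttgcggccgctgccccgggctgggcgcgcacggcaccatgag
Fzd7: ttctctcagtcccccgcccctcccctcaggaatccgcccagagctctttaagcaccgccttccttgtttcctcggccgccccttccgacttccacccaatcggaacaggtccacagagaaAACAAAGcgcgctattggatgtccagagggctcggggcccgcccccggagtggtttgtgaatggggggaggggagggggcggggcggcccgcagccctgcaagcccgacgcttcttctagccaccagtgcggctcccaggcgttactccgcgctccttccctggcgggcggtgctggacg

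Searched on both strands were the TCF/LEF letters CTTTGAT and CTTTGTT and the E2F letters TTTCGCGC, TTTGGCGC, TTTCCCGC and TTTGCCGC. Of 32851 windows of 300 bases in the same table, 9.33% held a TCF/LEF match and 2.26% an E2F match. The Wnt7a window and a second Ctnnb1 window held no match to these letters. All the windows of these genes were rich in G and C, with 75.3% for Ctnnb1, 84.3% for Wnt4, 66.7% for Fzd7 and 76.0% for Wnt7a, against a median of 52.7% over all windows.

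The arrays had deposited medians of 445 to 474, and the values below are quantile-normalized intensities. A floor of 197 (percentile 25 over all arrays) stands for the limit of detection. Of the 2 Rb1 probe sets, the brighter read 171 and 167 without serum and 114 and 109.5 in serum on the Rb-null arrays, all below the floor, against 386 and 370.4 without serum and 714, 398 and 368 in serum on the wild-type arrays. The other Rb1 probe set lay below the floor on all 9 arrays, those of the wild-type line included. It read 22.1 to 31.6 on the Rb-null arrays and 44.9 to 80.9 on the wild-type arrays, values too low to be read as levels. Prostate epithelial markers were present in both lines, with 0 of the 10 on the array below the floor throughout, and their summed intensity ranged from 31330.2 to 35806 in Rb-null arrays and from 30365 to 35127 in wild-type arrays. Smooth muscle markers summed to 6139 to 6579 in Rb-null arrays and to 9037 to 10586 in wild-type arrays, with Acta2, Myh11 and Cnn1, 3 of the 7, below the floor on every array. Summed fibroblast markers ranged from 3214 to 3347 in Rb-null and 3094 to 4011 in wild-type arrays. Summed leukocyte markers ranged from 1930.1 to 2013 in Rb-null and 1887 to 2339 in wild-type arrays. Pdgfrb, Lum and Ptprc were below the floor throughout. For both lists the lowest wild-type sum was on the first serum array. The other wild-type arrays summed to 3717 to 4011 and 2161 to 2339, above every Rb-null array. Summed endothelial markers (2049 to 2238 in Rb-null and 2320 to 2848 in wild-type arrays) and neuroendocrine markers (1007 to 1086 in Rb-null and 1158 to 1277 in wild-type arrays) were lower on every Rb-null array, with Tek, Tie1 and Chgb below the floor throughout. Part of these sums came from markers below the floor. On each array these were 2 or 3 of 6 endothelial, 1 or 2 of 6 leukocyte and 1 or 2 of 4 neuroendocrine markers. The sums therefore do not show that such cells were present. The part of any such cells in the line differences below was not tested. Fewer cells of a type cannot be told apart from less RNA per cell. The first wild-type serum array stood apart, with rank correlations of 0.986 and 0.983 to the other wild-type serum arrays, which correlated at 0.997 with each other.

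All the ligands read lower in the Rb-null line, beta-catenin read higher, and the receptors lay close together. Averaged over the media, the median log2 difference of the 8 genes, Rb-null minus wild-type, was -0.39, against -0.05 over the 9686 probe sets tested. Because the genes were chosen with this comparison in view, their line differences are given as a description, with no test, and nothing is read from the count of calls. That count was 1 of the 8 higher, 5 lower and 2 (Fzd6 and Fzd7) neither, at an adjusted p under 0.05, which 21.8% of all tested probe sets passed as higher and 23.4% as lower, 45.2% together. Wnt5a was the only one of the 8 below the floor on any array.

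**Figure D1:**
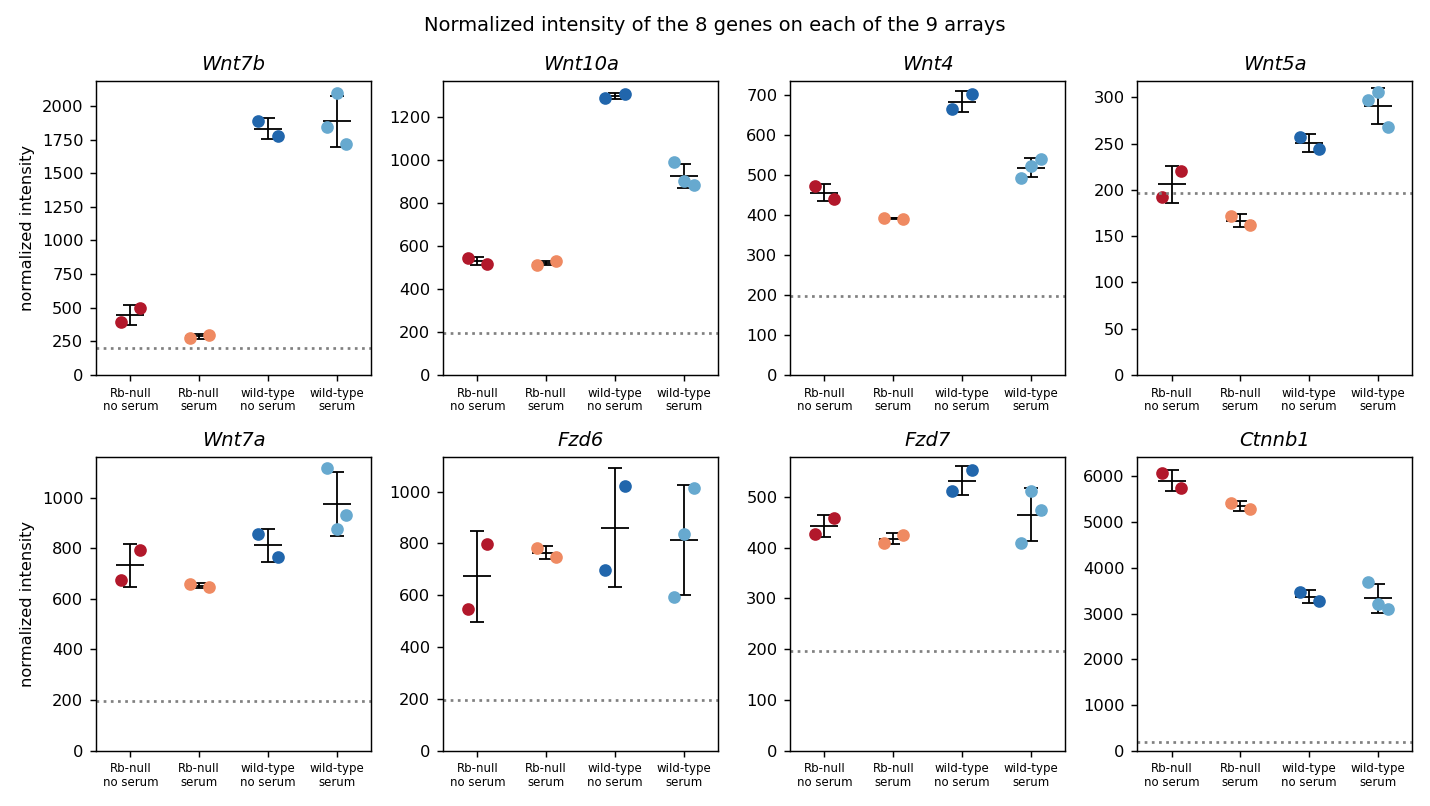
Normalized intensity (vertical axis, linear, from 0) of each of the 8 genes on each of the 9 arrays, by group. Points are arrays, horizontal bars are group means with 1 SD, and the dotted line is the floor of 197. Wnt7b, Wnt10a, Wnt4 and Wnt5a lie lower and Ctnnb1 higher on all 4 Rb-null arrays than on all 5 wild-type arrays.

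Wnt7b, a ligand with known roles in lung and kidney growth, differed most between the lines among the 8 genes. It read 391 and 497 in Rb-null cells without serum, 274 and 299 in Rb-null cells in serum, 1888 and 1775 in wild-type cells without serum and 1844, 2095 and 1717 in wild-type cells in serum. Every Rb-null array lay far below every wild-type array, and within the Rb-null line both serum-free arrays lay above both serum arrays. Group means were 444 ± 75.04 and 287 ± 17.6 in Rb-null cells without and with serum and 1832 ± 79.6 and 1885 ± 192 in wild-type cells without and with serum (SD, n = 2, 2, 2 and 3). The line difference on the log2 scale was -2.06 (SE 0.14) without serum, 4.16-fold, and -2.71 (SE 0.12) in serum, 6.56-fold. Leaving out any 1 array kept the averaged difference of -2.38 (SE 0.09) between -2.46 and -2.28.

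Wnt10a, a ligand known from hair, tooth and skin development, had the next largest difference among the ligands. It read 543 and 517 in Rb-null cells without serum, 513 and 529 in Rb-null cells in serum, 1290.1 and 1309 in wild-type cells without serum and 989, 905 and 886 in wild-type cells in serum. The Rb-null arrays were alike in both media, whereas the wild-type serum-free arrays stood above the wild-type serum arrays. Means were 530.1 ± 18.0 and 521 ± 11.2 in Rb-null cells without and with serum and 1299 ± 13.0 and 927 ± 55.0 in wild-type cells without and with serum (SD, n = 2, 2, 2 and 3). The line difference was -1.29 (SE 0.09) without serum, 2.45-fold, and -0.83 (SE 0.08) in serum, 1.78-fold.

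Wnt4, a ligand required for kidney tubule formation and a mediator of progesterone in the mammary gland, differed less. It read 472 and 440.4 in Rb-null cells without serum, 393 and 390.2 in Rb-null cells in serum, 664 and 702 in wild-type cells without serum and 494, 522 and 540.4 in wild-type cells in serum. The groups ran in a clear order, highest in wild-type cells without serum, then wild-type cells in serum, Rb-null cells without serum and Rb-null cells in serum, with no overlap between neighbours. Means were 456 ± 22.1, 392 ± 2.1, 683 ± 26.5 and 519 ± 23.4 in Rb-null cells without and with serum and wild-type cells without and with serum (SD, n = 2, 2, 2 and 3). The line difference was -0.58 (SE 0.09) without serum and -0.40 (SE 0.08) in serum.

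Wnt5a, best known as a ligand of the planar polarity and calcium branch, was the dimmest against the floor. It read 192 and 221 in Rb-null cells without serum, 172 and 162 in Rb-null cells in serum, 258 and 244 in wild-type cells without serum and 297, 306 and 268 in wild-type cells in serum. Both Rb-null serum arrays and 1 Rb-null serum-free array were below the floor, and all wild-type arrays were above it. In serum Wnt5a was at least 1.47-fold lower in Rb-null cells, with measured means of 167 ± 6.91 (SD, n = 2) in Rb-null cells and 291 ± 19.7 (SD, n = 3) in wild-type cells. Without serum the means were 206 ± 20.0 and 251 ± 9.69 (SD, n = 2 each), and the fitted difference was -0.27 (SE 0.08) with the array below the floor raised to it. A floor at percentile 40 left Wnt5a untested, and a floor at percentile 10 gave -0.80 in serum.

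Wnt7a, a ligand of limb patterning and of the female reproductive tract, differed in serum and overlapped without it. It read 672 and 793 in Rb-null cells without serum, 659 and 646 in Rb-null cells in serum, 856 and 766 in wild-type cells without serum and 1115, 875 and 933 in wild-type cells in serum. In serum all Rb-null arrays lay below all wild-type arrays, and without serum the lines overlapped. Means were 733 ± 85.1 and 652 ± 9.14 in Rb-null cells without and with serum and 811 ± 63.9 and 974 ± 125 in wild-type cells without and with serum (SD, n = 2, 2, 2 and 3). The line difference was -0.15 (SE 0.13) without serum and -0.57 (SE 0.12) in serum, or -0.47 in serum with the first wild-type array left out.

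Fzd6, a Frizzled receptor that patterns mammalian hair through planar polarity, showed no separation of the lines. It read 548 and 797 in Rb-null cells without serum, 781 and 746 in Rb-null cells in serum, 698 and 1023 in wild-type cells without serum and 592, 836 and 1015 in wild-type cells in serum. The spread within groups was wide, and the lowest reading was on the array numbered 1 in 3 of the 4 groups. Means were 673 ± 176 and 763 ± 25.1 in Rb-null cells without and with serum and 860.2 ± 229.8 and 814 ± 213 in wild-type cells without and with serum (SD, n = 2, 2, 2 and 3). The line difference was -0.35 (SE 0.27; 95% interval -0.96 to 0.25) without serum and -0.06 (SE 0.25; 95% interval -0.61 to 0.50) in serum. The serum value changed sign in the deposited intensities (0.04), under median scaling (0.01) and with a replicate block (0.12).

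Fzd7, a receptor that can pass both canonical and polarity signals, read 427 and 459 in Rb-null cells without serum, 409.8 and 426 in Rb-null cells in serum, 512 and 553 in wild-type cells without serum and 409.7, 512 and 474 in wild-type cells in serum. Without serum the lines did not overlap, and in serum the first wild-type array lay at the Rb-null level. Means were 443 ± 22.2 and 418 ± 11.2 in Rb-null cells without and with serum and 533 ± 28.8 and 465 ± 51.9 in wild-type cells without and with serum (SD, n = 2, 2, 2 and 3). The line difference was -0.26 (SE 0.11) without serum and -0.15 (SE 0.10) in serum, or -0.24 in serum without that array.

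Ctnnb1, whose product beta-catenin is both the nuclear effector of canonical signalling and a link between cadherins and the cytoskeleton, was the only gene of the 8 with a higher average over the media in the Rb-null line. It read 6069 and 5750.0 in Rb-null cells without serum, 5424 and 5282 in Rb-null cells in serum, 3470.0 and 3266 in wild-type cells without serum and 3681, 3211 and 3095 in wild-type cells in serum. Every Rb-null array lay above every wild-type array, while the wild-type media overlapped. Means were 5909 ± 225 and 5353 ± 99.9 in Rb-null cells without and with serum and 3368 ± 145 and 3329 ± 311 in wild-type cells without and with serum (SD, n = 2, 2, 2 and 3). The line difference was 0.81 (SE 0.09) without serum, 1.75-fold, and 0.69 (SE 0.08) in serum, 1.61-fold. Averaged over the media it was 0.75 (SE 0.06), and 0.93 in the values as deposited. These are transcript levels, and the amount and location of the protein were not measured.

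**Figure D2:**
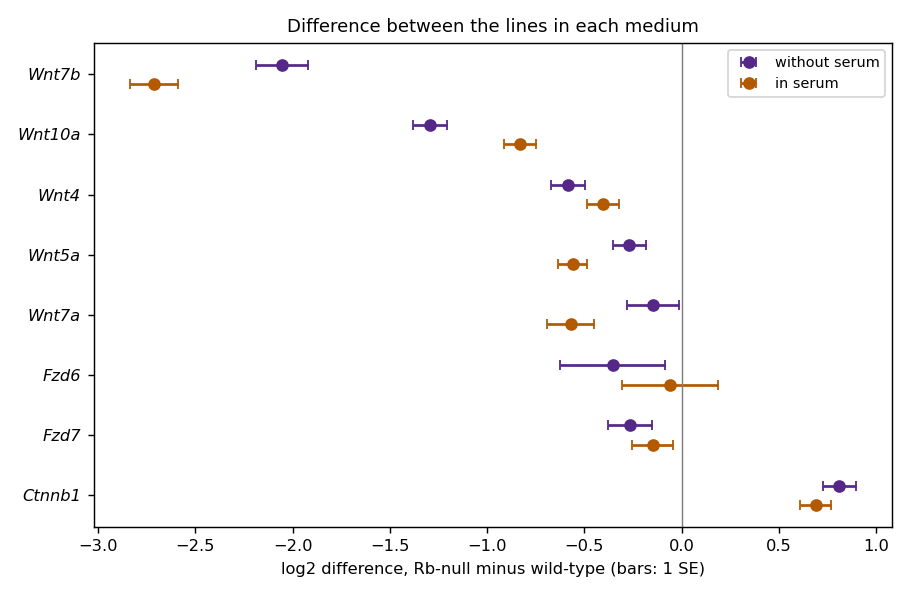
Log2 difference between the lines, Rb-null minus wild-type (horizontal axis), for each of the 8 genes without serum and in serum. Points are fitted differences and bars are 1 SE. Wnt7b stands at -2.06 without serum and -2.71 in serum, Ctnnb1 at 0.81 and 0.69, and Fzd6 has the widest bars.

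The response to serum withdrawal was compared within each line, a comparison with its own tests. In Rb-null cells 1 of the 8 genes rose, 0 fell and 7 did not pass in limma. The median was 0.11, against 0.00 over all tested probe sets, of which 7.5% rose and 6.42% fell, 13.9% together. Wnt7b was the gene that rose, by 0.62 on the log2 scale without serum (SE 0.14; 95% interval 0.32 to 0.93; limma adjusted p = 0.0146). Both serum-free arrays lay above both serum arrays, at levels that remained below every wild-type array. The Wnt7b call was lost when the floor was set at percentile 40 (0.40, adjusted p = 0.0788), with no filter on low values (adjusted p = 0.0556), and without Rb-null serum array 1 (adjusted p = 0.113), Rb-null serum array 2 (adjusted p = 0.067) or Rb-null serum-free array 2 (adjusted p = 0.105).

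The other ligands gave smaller differences in Rb-null cells. Wnt4 stood at 0.22 (SE 0.09; 95% interval 0.02 to 0.42; limma adjusted p = 0.162), Wnt7a at 0.16 (95% interval -0.14 to 0.46; adjusted p = 0.565) and Wnt10a at 0.03 (95% interval -0.18 to 0.23; adjusted p = 0.946). Wnt5a, with 3 of its 4 Rb-null arrays below the floor, read 206 ± 20.0 without serum and 167 ± 6.91 in serum (SD, n = 2 each; limma adjusted p = 0.664), and no fold is given. Fzd6 stood at -0.21 (95% interval -0.81 to 0.40), Fzd7 at 0.08 (95% interval -0.17 to 0.34) and Ctnnb1 at 0.14 (95% interval -0.05 to 0.34), with limma adjusted p of 0.763, 0.776 and 0.387.

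In wild-type cells the ligands that passed were Wnt10a and Wnt4. Of the 8 genes 2 rose without serum, 0 fell and 6 did not pass in limma. The median was 0.05, the same as over all tested probe sets, of which 6.61% rose and 9.25% fell, 15.9% together. Wnt10a rose by 0.49 (SE 0.08; 95% interval 0.30 to 0.67; limma adjusted p = 0.00343), a call kept without any 1 array (highest adjusted p = 0.0433). Wnt4 rose by 0.40 (SE 0.08; 95% interval 0.22 to 0.58; adjusted p = 0.0097), which no longer passed when wild-type serum-free array 2 was left out (0.36, adjusted p = 0.0978).

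Among the wild-type genes that did not pass, Wnt7b stood at -0.04 (95% interval -0.32 to 0.24; limma adjusted p = 0.869). Wnt5a stood at -0.21 (SE 0.08; 95% interval -0.38 to -0.04; adjusted p = 0.0997) and passed when wild-type serum array 3 was left out (-0.27, adjusted p = 0.0435). Wnt7a stood at -0.26 (95% interval -0.53 to 0.01; adjusted p = 0.202). For both Wnt5a and Wnt7a the wild-type serum-free arrays lay below all wild-type serum arrays. Fzd7 stood at 0.20 (95% interval -0.04 to 0.43), Fzd6 at 0.09 (95% interval -0.47 to 0.64) and Ctnnb1 at 0.02 (95% interval -0.16 to 0.20), with limma adjusted p of 0.256, 0.842 and 0.889.

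**Figure D3:**
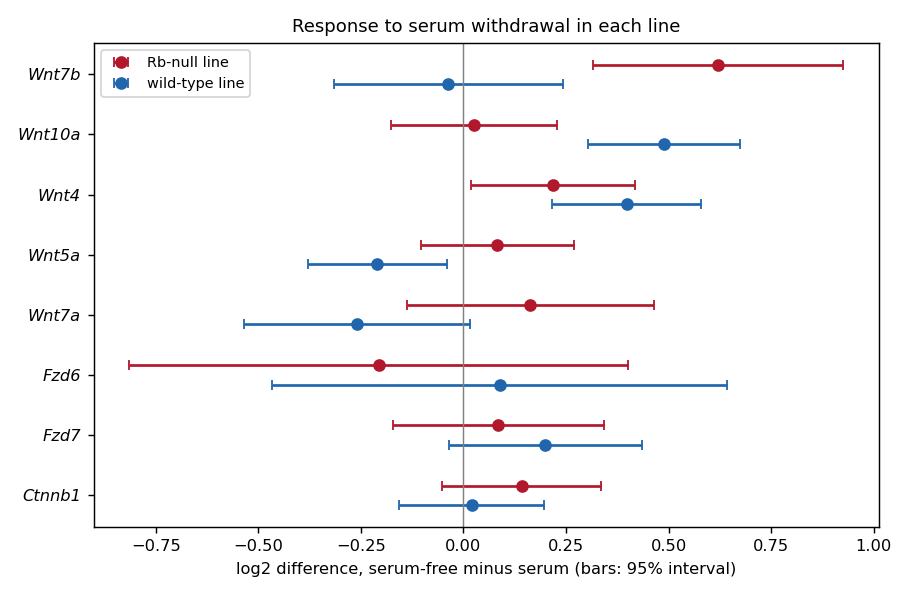
Log2 difference between media, serum-free minus serum (horizontal axis), for each of the 8 genes in the Rb-null line and in the wild-type line. Points are fitted differences and bars are 95% intervals. Wnt7b rose in Rb-null cells (0.62) and Wnt10a and Wnt4 in wild-type cells (0.49 and 0.40).

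Whether a gene responded unequally in the lines was tested as the difference of these responses, Rb-null minus wild-type, and 0 of the 8 passed in limma. Over all tested probe sets, 0.929% passed, 0.454% higher and 0.475% lower. Wnt7b gave a difference of 0.66 (SE 0.18; 95% interval 0.24 to 1.07; limma adjusted p = 0.194) and Wnt10a one of -0.46 (SE 0.12; 95% interval -0.74 to -0.19; limma adjusted p = 0.163). A call in 1 line and none in the other is therefore not shown to be a difference between them for either ligand. The Wnt10a difference passed when the first wild-type serum array was left out (-0.51, adjusted p = 0.0261).

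Wnt7a and Wnt5a had responses of opposite sign in the lines, none of which passed: 0.16 and 0.08 in Rb-null cells and -0.26 and -0.21 in wild-type cells. The differences of these responses did not pass either, at 0.42 (SE 0.18; limma adjusted p = 0.437) and 0.29 (SE 0.11; limma adjusted p = 0.371). For Wnt5a, 3 Rb-null arrays were raised to the floor, both serum arrays among them. Its values of 0.08 and 0.29, and the SE, therefore depend on the floor. The other genes gave differences of -0.18 for Wnt4, -0.29 for Fzd6, -0.12 for Fzd7 and 0.12 for Ctnnb1, with limma adjusted p between 0.62 and 0.787. The intervals remained wide for the receptors, at -1.12 to 0.53 for Fzd6 and -0.46 to 0.23 for Fzd7.

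Wnt7b and Wnt10a were the members whose values spanned at least 1 on the log2 scale over the 9 arrays, by 2.93 and 1.35. Among 1046 probe sets with a span of at least 1, those with the most similar profile to Wnt7b were Id2, which blocks helix-loop-helix factors (Pearson r = 0.992), Ywhab, a 14-3-3 adaptor protein (r = 0.992), and Plxnb2, a semaphorin receptor (r = 0.986). Those nearest to Wnt10a were Cdh6, a cadherin (r = 0.987), Krt20, a keratin (r = 0.985), and Il18r1, an interleukin receptor chain (r = 0.97). These correlations run over the 9 arrays of 4 groups, share the large step between the lines, and are a description only.

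Around these genes, the array held 115 of 159 listed partners of the pathway, of which 103 were tested, each by its brightest probe set. The lists were chosen with earlier results of these data known, so their line differences and adjusted p are given as a description. In the averaged line difference 18 were higher and 26 lower (17.5% and 25.2%; median -0.06), near the 21.8% and 23.4% of all tested probe sets. Of the 7 other Wnt ligands tested, Wnt6 passed, lower at -0.30 (SE 0.07, limma adjusted p = 0.00931). Its means were close to the floor, 202 and 198 in Rb-null cells without and with serum and 265 and 225 in wild-type cells without and with serum. Wnt5b and Wnt11 were below the floor and untested, as were the secreted inhibitors Dkk1, Dkk2 and Dkk3.

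The receptor list had 2 of 14 higher and 5 lower. Fzd2, another Frizzled receptor, stood at -0.46 (limma adjusted p = 0.00153) and Ptk7, a co-receptor of the polarity branch, at -0.43 (adjusted p = 0.000636). The co-receptor Lrp6 stood at 0.36 (adjusted p = 0.00202), but its other probe set read -0.14 and did not pass. Among ligand processing genes, 0 of 6 were higher and 2 lower: Wls, which carries Wnt proteins to the cell surface, at -0.62 (adjusted p = 0.000655), and the glypican Gpc4 at -0.44 (adjusted p = 0.00816).

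Within the destruction complex and its relays, 4 of 17 were higher and 3 lower. Apc, the scaffold that helps to degrade beta-catenin, was higher at 0.46 (limma adjusted p = 0.000689), and the casein kinase subunit Csnk2a1 was lower at -0.51 (adjusted p = 0.00024), with 0.02, -0.25 and -0.16 on its other probe sets, of which the last passed. Of the nuclear partners, 2 of 16 were higher and 6 lower. Chd8, a chromatin remodeller that represses beta-catenin targets, stood at -0.95 (limma adjusted p = 9.25e-06). Tle5, a member of the Groucho family, stood at -0.66 (limma adjusted p = 0.000133). Of the junction partners, 1 of 9 was higher and 3 were lower, with Ctnna1 (alpha-catenin) at 0.22 (adjusted p = 0.00934; -0.06 and not called on its other probe set), N-cadherin (Cdh2) at -0.71 (adjusted p = 0.000308) and plakoglobin (Jup), a close relative of beta-catenin, at -0.54 (adjusted p = 0.00164). The planar polarity and calcium list had 4 of 16 higher and 3 lower. Rock1, a kinase that acts on the actin cytoskeleton, stood at 0.46 (adjusted p = 0.000555). Rhoa stood at -0.42 (adjusted p = 0.0011), with -0.29 and -0.05 on its other probe sets, of which the first passed.

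Textbook targets of beta-catenin went both ways, with 5 of 19 higher, 4 lower and a median of 0.01. Myc, a growth-promoting transcription factor, stood at 1.12 (limma adjusted p = 0.000328) and Fosl1, an AP-1 subunit, at 0.69 (adjusted p = 0.00114). Id2 stood at -2.45 (adjusted p = 1.47e-08) and cyclin D1 (Ccnd1) at -0.77 (adjusted p = 8.86e-07). Lef1, a TCF-family partner of beta-catenin that is also its target, stood at -0.25 (adjusted p = 0.0076), which did not pass under median scaling or in the deposited intensities.

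**Figure D4:**
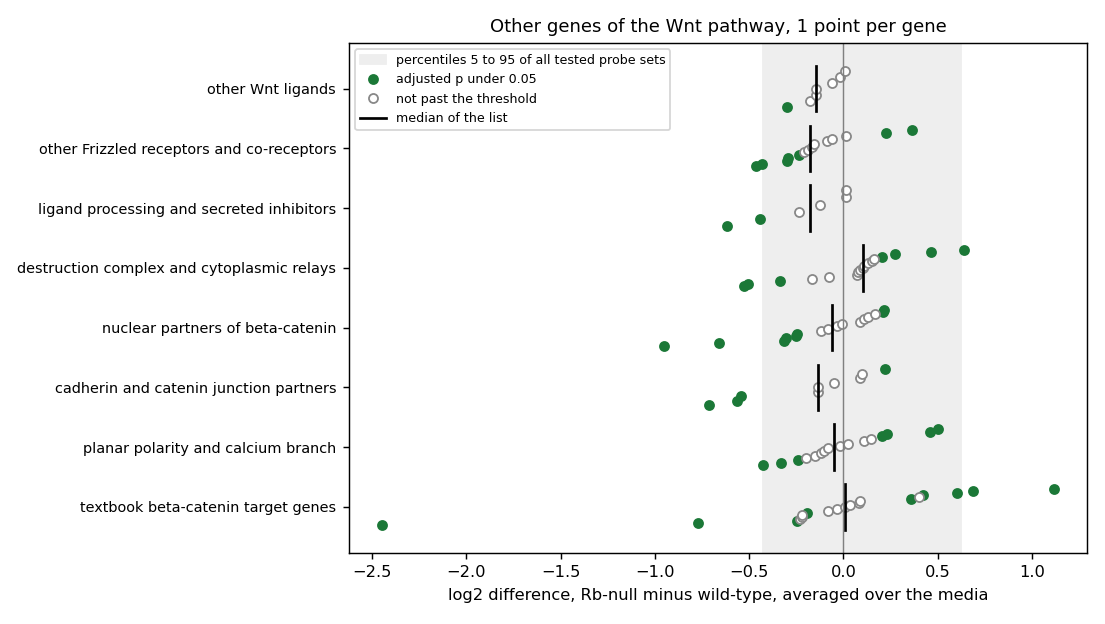
Log2 difference between the lines, Rb-null minus wild-type averaged over the media (horizontal axis), for the 103 tested pathway genes outside the 8, by list (rows). Each point is a gene, filled where the adjusted p was under 0.05, with the list median as a bar and percentiles 5 to 95 of all tested probe sets shaded. Id2 at -2.45 and Myc at 1.12 lie at the ends.

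Serum withdrawal changed fewer of these partners than passed in the line difference. In Rb-null cells 7 of the 103 rose and 5 fell, where 7.5% and 6.42% of all tested probe sets did. In wild-type cells 2 rose and 9 fell, where 6.61% and 9.25% of all tested probe sets did. Among the targets, Birc5, the inhibitor of apoptosis survivin, fell in both lines, with -3.12 in Rb-null cells (limma adjusted p = 2.52e-07) and -2.50 in wild-type cells (adjusted p = 8.37e-07). Vegfa, a vascular growth factor, rose by 1.27 in Rb-null cells (limma adjusted p = 0.00403), and by 0.75 at the lowest among the alternatives. Its Rb-null mean in serum was near the floor, 232 against 565 without serum. Wild-type means were 237 in serum and 244 without, and the difference of the responses did not pass. Sox4, a progenitor transcription factor, rose in both lines, by 0.56 in Rb-null cells (adjusted p = 0.00815) and by 0.88 in wild-type cells (adjusted p = 0.000352). The Rb-null call was lost without Rb-null serum array 2 or Rb-null serum-free array 1 (highest adjusted p = 0.0822), while the other Sox4 probe set passed at 0.86 in Rb-null cells (adjusted p = 0.00062) and 0.88 in wild-type cells (adjusted p = 0.000245). Ruvbl1, an ATPase of chromatin complexes that binds beta-catenin, fell in both, with -0.66 in Rb-null cells (adjusted p = 0.000827) and -0.48 in wild-type cells (adjusted p = 0.00234), while its other probe set read 0.05 and 0.04 and did not pass.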

How the data were processed

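Gene expression was read from 9 single-channel arrays with 12422 probe sets. The deposited values were linear intensity values, 1 per probe set and array. For the software and the scaling behind them, the sources used here give no name. Gene symbols came from the platform annotation, which gave 1 gene to 10833 probe sets, several to 396 and none to 1193. Upper quartiles of the arrays spanned 0.22 on the log2 scale, above the limit of 0.1 set for leaving values unchanged, so the intensities were quantile normalized. Values below the percentile 25 (197) were raised to it and log2 was taken. Probe sets above this floor on at least 2 arrays were tested, 9686 for 7063 genes, with 2735 left out.

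A fit of 4 group means in limma 3.58.1 (R 4.3.3), with an intensity trend, 5 residual and 4.20 prior degrees of freedom, gave two-sided p-values adjusted by Benjamini-Hochberg over the 9686 probe sets, with a threshold of 0.05. The fit was checked on simulated arrays for the averaged line difference only, without the normalization and the floor. The withdrawal responses and their difference were not checked in this way. The number of arrays limits the precision, and no depth applies. A group wholly below the floor gives a fold against that floor, as a lower bound.

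All probe sets of the 8 genes were named, with up to 3 pathway genes per list and direction by smallest adjusted p, fewer where space or a value at the floor spoke for it, and the 3 genes most similar to a member that spans at least 1. The members and lists were chosen with earlier results of these data known. Promoter windows came from RefSeq tables. Alternatives were the values as deposited, median scaling, floors at percentile 40 and 10, no filter, no intensity trend, a replicate block and each array left out.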

Additional observations from a re-analysis of the deposited data

Results flagged for a closer look

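For Wnt7a and Wnt5a the order of the media was opposite in the lines, though no response passed in either line: every serum-free array lay above every serum array in Rb-null cells and below every serum array in wild-type cells, with differences of 0.42 for Wnt7a and 0.29 for Wnt5a that did not pass (limma adjusted p = 0.437 and 0.371). For Wnt5a this ordering includes 3 Rb-null arrays below the floor. With so few arrays a group such separation of the media can arise without a response, and its share over all probe sets was not counted. Among the pathway genes, the difference of responses passed for Ccnd1 (-0.43, limma adjusted p = 0.0397), which fell without serum in Rb-null cells and whose other probe set gave 0.18 (not called), and for Birc5 (-0.62, limma adjusted p = 0.047), which fell in both lines. Each of these calls was lost without 8 of the 9 arrays taken in turn. The Ccnd1 call was also lost under 6 other settings: deposited values, median scaling, a floor at percentile 10, no filter, no intensity trend and a replicate block (highest adjusted p = 0.113). The Birc5 call was also lost under 2, the floor at percentile 10 and the replicate block (highest adjusted p = 0.123).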

How the results depend on the processing

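The line differences of all 8 genes averaged over the media kept their direction under every setting and without any 1 array, except that Wnt5a gave no value with a floor at percentile 40, where it was not tested. In Rb-null withdrawal, the count of the 8 genes called was 0 in place of 1 with a floor at percentile 40 and 0 with no filter on low values. Over all probe sets, the count for the difference of responses was 57 with a floor at percentile 10, 57 with no intensity trend and 51 with a replicate block, against 90. The wild-type withdrawal value of Ctnnb1 changed sign, to -0.075 in the values as deposited, -0.028 with median scaling and -0.030 with a replicate block. The cause was not tested.

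Leaving out 1 array at a time gave probe set counts of 497 to 2280 for Rb-null withdrawal (1348 with all arrays), 667 to 1963 for wild-type withdrawal (1536) and 12 to 255 for the difference of responses (90). Counts among the 8 genes ran from 0 to 1 for Rb-null withdrawal, from 1 to 3 for wild-type withdrawal and from 0 to 1 for the difference. Withdrawal values that changed sign were Wnt10a (-0.0095 to 0.059) and Fzd6 (-0.48 to 0.064) in Rb-null cells, and Wnt7b (-0.10 to 0.041), Fzd6 (-0.19 to 0.37) and Ctnnb1 (-0.031 to 0.096) in wild-type cells.

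Of 12 same-numbered pairs of arrays, 2 correlated above 0.1 after group means were taken off, over a range of -0.23 to 0.33. In a group of 2 arrays these deviations mirror each other, so the check cannot tell whether replicate numbers pair the arrays. The share of higher probe sets among the calls of the averaged line difference was 48.1%, compared with 69.3% for deposited intensities and 60.7% under median scaling. In wild-type withdrawal it was 41.7%, against 25.7% and 36.2%. Signals near the floor limit Wnt5a, and 2 or 3 arrays a group limit every interval.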
